A study of Mus musculus with 8 samples.

Results

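The genes described here are 6 dual specificity phosphatases, Dusp1, Dusp2, Dusp4, Dusp5, Dusp6 and Dusp10, which were chosen by name from the family that switches off MAP kinases. All 6 were found by their Entrez identifiers among the 11723 genes listed for the series, and all 6 were among the 11530 genes tested. RNA was sequenced from CD8 T cells sorted from peripheral lymph nodes of BALB/c mice aged 12 days. The WT group had 4 libraries and the group labelled IL-2-KO, a knockout of the T cell growth factor IL-2 whose allele the labels do not describe, had 4. The WT libraries were pools of 5, 5, 3 and 2 mice, and the labels give no pooling for the IL-2-KO libraries. The series' design text calls the libraries biological replicates, and mentions spleen and heterozygous (HET) control mice, neither of which appears in the sample labels.

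Dual specificity phosphatases remove the phosphate groups from both the threonine and the tyrosine that activate a MAP kinase, and so end the signal of ERK, JNK or p38. Many are themselves transcribed in response to the kinases that they inactivate, which makes them part of a negative feedback loop. In T cells these kinases act downstream of the antigen receptor, costimulatory receptors, cytokines and stress. Dusp1, Dusp2, Dusp4 and Dusp5 encode inducible nuclear phosphatases, Dusp6 a cytoplasmic one selective for ERK, and Dusp10 one that prefers JNK and p38.

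The sequences just before the start site are shown for 4 of the genes, because Dusp2 and Dusp6 differed between the groups while Dusp1 and Dusp5 differed most among libraries of the same group. RefSeq start sites of GRCm38.p6 were available for 5 of the 6 genes, Dusp4 being the one without. Each stretch holds the 250 bases before the start, 5′ to 3′ on the strand of the gene, and capitals mark matches to the motifs searched. The coordinates are chr2:127335909-127336158 on the plus strand for Dusp2, chr10:99262981-99263230 on the plus strand for Dusp6, chr17:26508473-26508722 on the minus strand for Dusp1, and chr19:53528895-53529144 on the plus strand for Dusp5.

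Dusp2: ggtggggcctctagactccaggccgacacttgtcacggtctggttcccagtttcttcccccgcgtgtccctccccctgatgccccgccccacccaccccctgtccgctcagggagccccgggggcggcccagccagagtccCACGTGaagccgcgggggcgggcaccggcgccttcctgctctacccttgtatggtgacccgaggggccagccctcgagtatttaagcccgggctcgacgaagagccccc

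Dusp6: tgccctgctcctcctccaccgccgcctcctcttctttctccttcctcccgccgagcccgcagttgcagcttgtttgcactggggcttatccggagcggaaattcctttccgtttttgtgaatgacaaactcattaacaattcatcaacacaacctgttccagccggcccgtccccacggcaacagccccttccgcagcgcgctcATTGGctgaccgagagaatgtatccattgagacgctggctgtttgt

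Dusp1: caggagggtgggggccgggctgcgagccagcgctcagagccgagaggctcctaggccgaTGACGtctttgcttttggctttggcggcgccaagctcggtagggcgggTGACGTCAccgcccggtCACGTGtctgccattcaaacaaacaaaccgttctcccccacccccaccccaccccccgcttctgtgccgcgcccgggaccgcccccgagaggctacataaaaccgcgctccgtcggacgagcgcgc

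Dusp5: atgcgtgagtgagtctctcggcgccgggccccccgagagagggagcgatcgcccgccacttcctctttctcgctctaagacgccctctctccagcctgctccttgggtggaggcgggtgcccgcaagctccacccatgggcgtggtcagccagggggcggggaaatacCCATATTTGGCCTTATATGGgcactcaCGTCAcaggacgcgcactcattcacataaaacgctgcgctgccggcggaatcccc

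On both strands, 9 motifs were searched: the cyclic AMP response element TGACGTCA and its shorter form TGACG, the AP-1 site TGANTCA, the STAT site TTCNNNGAA, the E-box CACGTG, the ETS site CCGGAA, the TATA box TATAAA, the CCAAT box and the CArG box of serum response factor. The full cyclic AMP element lay 143 to 136 bases before the start of Dusp1 and holds 2 of that gene's 3 matches to the shorter form. It occurs in 1.55% of the 32851 start-site windows of the same length, and the shorter form, which Dusp5 matches once, in 17.8%. Dusp5 carried 2 adjoining CArG boxes, 82 to 73 and 72 to 63 bases before the start, a motif found in 1.47% of windows. An E-box lay 126 to 121 bases before the start of Dusp1 and 109 to 104 bases before that of Dusp2, against 6.02% of windows. Dusp6 held 1 CCAAT box and Dusp10 held 3, against 33.8% of windows with at least 1. No match to the AP-1, STAT, ETS or TATA letters fell in any of the 5 windows, and these letters occur in 6.75%, 7.02%, 12.03% and 12.4% of windows. The GC content was 70.4% for Dusp2, 68.4% for Dusp1, 64% for Dusp5, 59.6% for Dusp10 and 56.4% for Dusp6, all above the median window of 52.4%. A match describes the letters only and is not a measured binding site.

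Some libraries stood apart. Values are counts per M (1e6) of the TMM-scaled library size (normalised signal), on 11.9 to 18.4 M recovered counts per library, so that a signal of 1 rests on 11.9 to 18.6 counts. Cd8a was at 1479 or more in all 8 libraries, while Cd4 was at 38.6 in WT replicate 2 and 45.5 in IL-2-KO replicate 3 and at most 2.48 in the other 6. The sum of 15 listed of 22 myeloid and dendritic cell markers was 327 to 707 in WT and 193 to 1537 in IL-2-KO, highest in the same pair of libraries. Ccr9, which T cells also express and which was lower in IL-2-KO, made up much of it. Without Ccr9 the sum was 87.0, 554, 74.4 and 77.4 in WT and 169, 142, 1464 and 106 in IL-2-KO, so that it was also higher in the other 3 IL-2-KO libraries than in the other 3 WT libraries. Bst2, which stays in this sum, was the only gene of the list that passed upward. Its call was lost without any of WT replicates 1, 3 and 4 (limma adjusted p from 0.0504 to 0.0587). That of all 7 helper and regulatory T cell markers was 21.9 to 103 and 77.3 to 249, again highest in that pair. Of the 12 B cell markers 5 were listed, and neither Ms4a1 nor Pax5 was among them; their sum was 42.2 to 65.9 in WT and 42.5 to 90.3 in IL-2-KO. Sums that did not overlap between the groups were those of 4 listed of 10 NK cell markers, 110 to 159 in WT and 349 to 577 in IL-2-KO, and of 3 listed of 7 plasma cell markers, 60.1 to 77.1 and 109 to 136. The separation of the plasma cell sum came from Irf4, which activated T cells also express: without it the sums were 36.8 to 50.3 and 42.5 to 60.9. Most of the NK sum was Eomes and Gzma, which CD8 T cells can also express, and Ncr1 was not listed. The sorted cell number was 28.7 M or more in WT replicates 1 and 2, and 26.7 M or more in IL-2-KO replicates 1 and 2. It was at most 1.3 M in replicates 3 and 4 of both groups. Il2 itself was at 5.65 to 6.25 in WT and 4.25 to 8.42 in IL-2-KO (log2 change 0.04, limma adjusted p = 0.907), so the level of Il2 did not separate the groups. WT and IL-2-KO are therefore used as the labels' names, here and for every direction given.

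Between the libraries labelled WT and IL-2-KO, 3 of the 6 phosphatase genes changed: Dusp2 and Dusp6 were lower in IL-2-KO CD8 T cells and Dusp4 was higher. Dusp1, Dusp5 and Dusp10 did not pass the test, and the same count of 3 passed without IL-2-KO replicate 3 and WT replicate 2. The test was limma on log2(signal + 0.5) over all tested genes, with Benjamini-Hochberg adjustment and a threshold of 0.05. Of all tested genes, 19.2% passed, 11.1% higher and 8.03% lower in IL-2-KO. The groups' values did not overlap for 3 of the 6, and for 24.2% of all tested genes. The median log2 change was −0.10 over the 6 genes and −0.01 over all tested genes. In bulk RNA, a lower level can reflect fewer cells that express a gene or less RNA per cell, and these cannot be told apart.

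**Figure D1:**
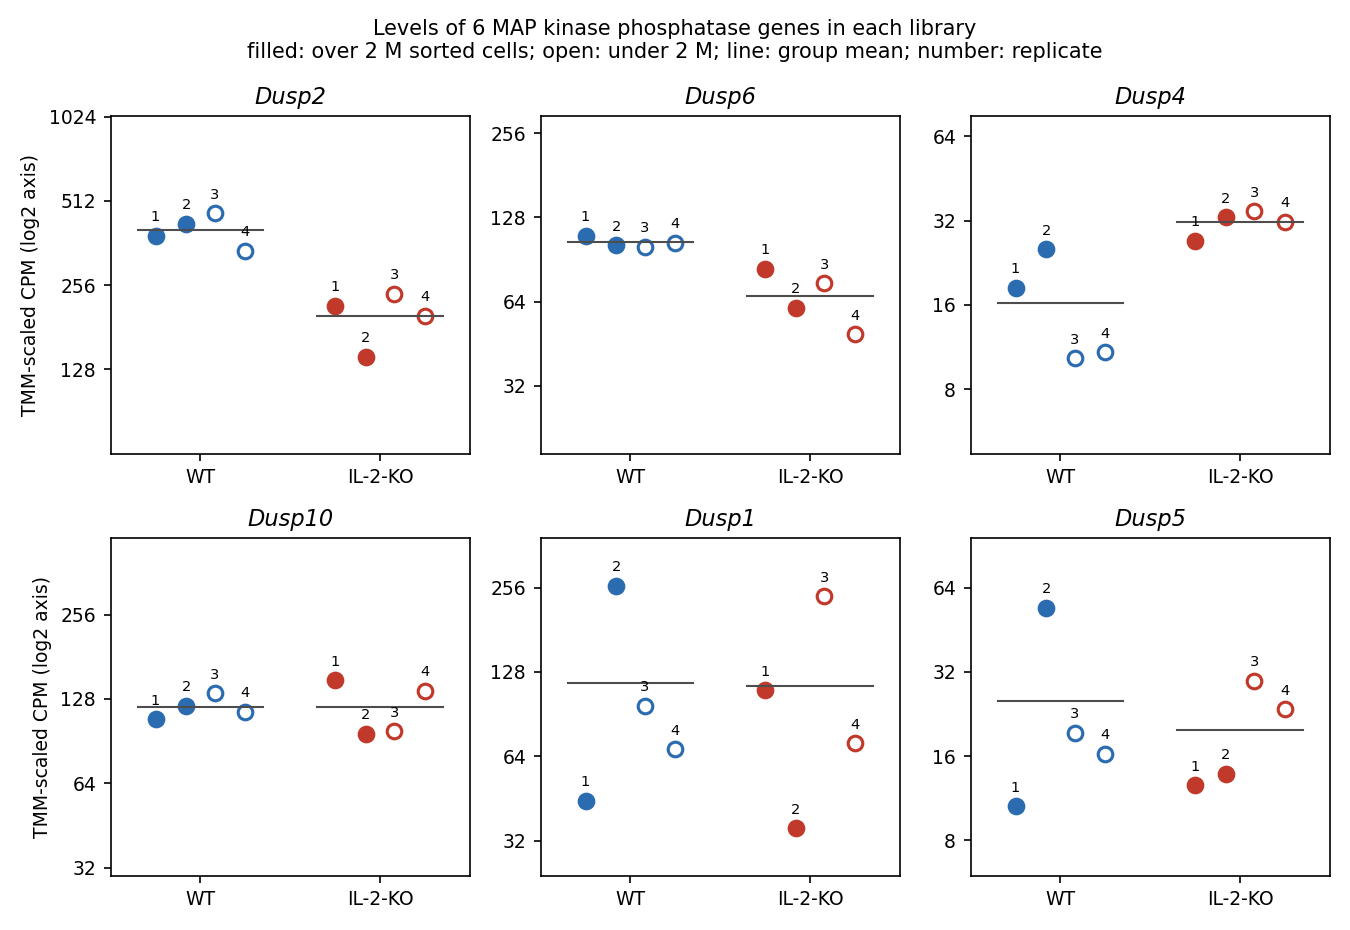
Normalised signal (counts per M of the TMM-scaled library size) of the 6 phosphatase genes in each library, on a log2 axis, with a line at each group mean (n = 4 each), filled points for over 2 M sorted cells and open points for under 2 M. All IL-2-KO libraries lie below all WT libraries for Dusp2 and Dusp6 and above them for Dusp4, while Dusp1 and Dusp5 are widely spread in both groups.

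Dusp2 (chromosome 2, 127336159 to 127338377, GRCm38) encodes the nuclear phosphatase first described in activated lymphocytes, which acts on ERK and p38. Its signal was 384, 423, 462 and 340 in WT replicates 1 to 4 and 216, 142, 239 and 199 in IL-2-KO replicates 1 to 4. Every IL-2-KO library was below every WT library. The mean fell from 402 ± 52.6 (SD, n = 4) to 199 ± 41.2 (SD, n = 4), a log2 change of −1.03 (95% confidence interval −1.37 to −0.69, SE 0.15, limma adjusted p = 0.00139). Among the 70 assignments of 4 of 8 libraries, the exact two-sided permutation p was 0.0286, the smallest that this design allows. Every gene whose groups do not overlap reaches this p, so it restates that separation, for Dusp4 and Dusp6 below as well. It was not adjusted for the number of genes. These values rest on 2361 to 8030 counts per library. Among the libraries of over 2 M sorted cells the log2 change was −1.20 (adjusted p = 0.0164), and among those of under 2 M it was −0.86 (limma adjusted p = 0.0737, 2 against 2 libraries). Without IL-2-KO replicate 3 and WT replicate 2, which carried the highest helper T cell and myeloid marker levels, it was −1.10. The NK and plasma cell marker sums also differed between the groups, for Dusp2 as for the genes below. Outside that pair, so did the myeloid sum without Ccr9 and the helper and regulatory T cell sum. Their part in these changes was not tested.

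Dusp4 (chromosome 8, 34807610 to 34819894) encodes a nuclear phosphatase for ERK and JNK that is itself induced by ERK signalling. Its signal was 18.4, 25.3, 10.3 and 10.9 in WT and 27.1, 32.8, 34.5 and 31.8 in IL-2-KO. WT replicate 2 came closest to the IL-2-KO libraries, all of which were higher. The mean rose 2.04-fold on the log2(signal + 0.5) scale, from 16.2 ± 7.09 (SD, n = 4) to 31.6 ± 3.17 (SD, n = 4), a log2 change of 1.03 (95% confidence interval 0.47 to 1.59, SE 0.25, limma adjusted p = 0.0183). The exact permutation p was 0.0286. The change depended on the libraries used: it was 0.46 (limma adjusted p = 0.421) among those of over 2 M sorted cells and 1.60 (adjusted p = 0.0155) among those of under 2 M. Without WT replicate 3 it was 0.85 (limma adjusted p = 0.0560) and without WT replicate 4 it was 0.88 (limma adjusted p = 0.0563), so that neither passed. It was 1.23 without IL-2-KO replicate 3 and WT replicate 2.

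Dusp6 (chromosome 10, 99263231 to 99267489) encodes the cytoplasmic phosphatase that binds and inactivates ERK, and its transcript is widely used as a sign of ERK pathway output. Its signal was 110, 102, 100 and 104 in WT and 83.9, 60.8, 74.3 and 48.9 in IL-2-KO. The WT libraries lay within a narrow band, and all IL-2-KO libraries were below it and more spread. The mean fell from 104 ± 4.31 (SD, n = 4) to 67.0 ± 15.3 (SD, n = 4), a log2 change of −0.66 (95% confidence interval −0.98 to −0.34, SE 0.14, limma adjusted p = 0.0104, exact permutation p = 0.0286). The direction was the same among libraries of over 2 M cells (−0.57, limma adjusted p = 0.178) and of under 2 M (−0.76, limma adjusted p = 0.125), where 2 against 2 libraries did not pass. Gm34921 overlaps the annotated span of Dusp6, was not among the listed genes, and none of the sources used here gives the strand setting of the counting, so reads of that gene may be included.

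Dusp1 (chromosome 17, 26505591 to 26508472) encodes a nuclear phosphatase for p38, JNK and ERK and is an immediate early gene, induced within minutes by stress and mitogens. Its signal was 44.5, 260, 96.7 and 67.9 in WT and 110, 35.4, 239 and 71.3 in IL-2-KO. The groups overlapped almost completely, with the highest values in IL-2-KO replicate 3 and WT replicate 2. The means were 117 ± 97.6 (SD, n = 4) and 114 ± 88.7 (SD, n = 4), a log2 change of −0.05 (95% confidence interval −1.40 to 1.30, limma adjusted p = 0.965). Changes of more than 2-fold in either direction lie inside that interval. Its sign differed with the cell number, at −0.78 among libraries of over 2 M cells and 0.68 among those of under 2 M, and neither passed the test.

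Dusp5 (chromosome 19, 53529145 to 53541809) encodes a nuclear phosphatase selective for ERK, and IL-2 is known to induce it in T cells. Its signal was 10.6, 54.2, 19.4 and 16.3 in WT and 12.6, 13.9, 29.7 and 23.5 in IL-2-KO. Again IL-2-KO replicate 3 and WT replicate 2 were the highest of their groups. The log2 change was −0.14 (95% confidence interval −1.13 to 0.84, limma adjusted p = 0.854), with means of 25.1 ± 19.7 (SD, n = 4) and 19.9 ± 8.14 (SD, n = 4). Without that pair of libraries it was 0.09. It was −0.85 among libraries of over 2 M cells and 0.56 among those of under 2 M, neither of which passed.

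Dusp10 (chromosome 1, 184034381 to 184075636) encodes a phosphatase for JNK and p38 found in both nucleus and cytoplasm. Its signal was 108, 121, 134 and 115 in WT and 149, 96.2, 98.1 and 137 in IL-2-KO. The IL-2-KO libraries lay on both sides of the WT range, and both means were 120, with an SD of 10.9 in WT and 26.9 in IL-2-KO (n = 4 each). The log2 change was −0.02 (95% confidence interval −0.34 to 0.30, limma adjusted p = 0.944), an interval that leaves out a 2-fold change in either direction.

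Levels of different genes were compared per kilobase of the longest coding transcript. In WT, Dusp2 was at 249 ± 32.5 per kilobase (SD, n = 4), above 98.5% of the listed genes. Next came Dusp1 at 59.0 ± 49.1, Dusp10 at 42.9 ± 3.90 and Dusp6 at 37.2 ± 1.54 per kilobase. Dusp5 at 10.2 ± 7.97 and Dusp4 at 5.92 ± 2.59 were the lowest. The lowest WT value of Dusp2, 210 per kilobase, was above the highest of Dusp1, 131. The neighbours Dusp1 and Dusp10, Dusp10 and Dusp6, and Dusp5 and Dusp4 overlapped across the WT libraries, so their order is not fixed by these data.

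In IL-2-KO the per-kilobase order of the first 4 was the same, with Dusp2 at 123 ± 25.5, Dusp1 at 57.2 ± 44.6, Dusp10 at 43.0 ± 9.63 and Dusp6 at 24.0 ± 5.49 (SD, n = 4 each). Dusp4 at 11.5 ± 1.16 stood before Dusp5 at 8.05 ± 3.29, with overlapping values. The ranges of Dusp2 and Dusp1 overlapped in this group, where Dusp1 reached 120 per kilobase in replicate 3 and Dusp2 was at 88.0 in replicate 2. Dusp2 made up 52.0% to 68.0% of the summed per-kilobase level of the 6 genes in WT and 41.7% to 49.9% in IL-2-KO. The share of Dusp4 was 0.87% to 1.93% in WT and 3.45% to 6.68% in IL-2-KO. Neither share overlapped between the groups. The shares are built from the same values in which Dusp2 and Dusp4 already separated the groups, so they are not an independent result.

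**Figure D2:**
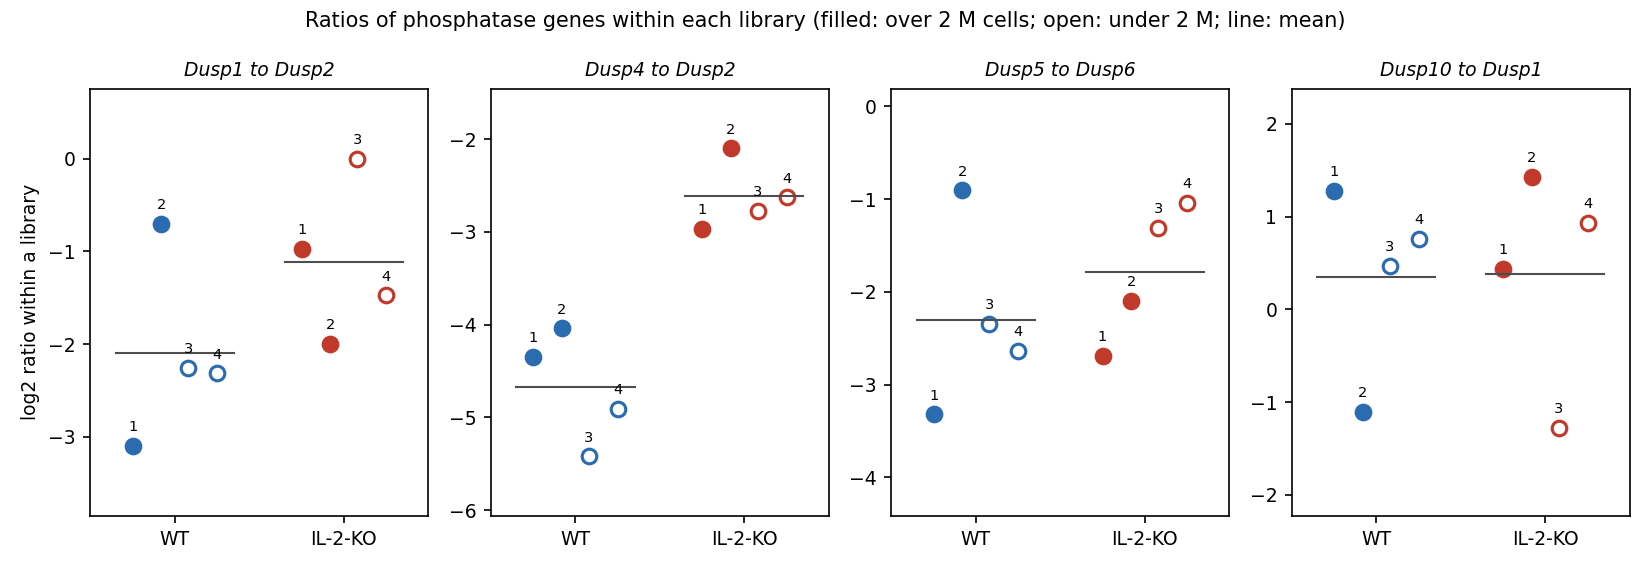
Log2 ratios of pairs of phosphatase genes within each library, by group (n = 4 each). All IL-2-KO libraries lie above all WT libraries in the Dusp4 to Dusp2 ratio, which follows from the separation of both genes. The other 3 ratios overlap.

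Ratios of 2 genes within a library, as log2 of (signal + 0.5) for each gene, depend on the scaling of that library only through the added 0.5. For 4 pairs, the mean log2 ratio was compared by exact two-sided permutation over libraries. The log2 ratio of Dusp4 to Dusp2, each with 0.5 added, was −4.34, −4.04, −5.42 and −4.91 in WT and −2.97, −2.10, −2.77 and −2.63 in IL-2-KO. It was higher in every IL-2-KO library, by 2.06 on average (exact permutation p = 0.0286, the smallest possible, and 0.114 after Benjamini-Hochberg adjustment over the 4 ratios). Dusp1 to Dusp2 differed by 0.98 (exact permutation p = 0.2, adjusted 0.4) and Dusp5 to Dusp6 by 0.52 (exact permutation p = 0.457, adjusted 0.610). Dusp10 to Dusp1 differed by 0.03 (exact permutation p = 1). No ratio passed after adjustment, and with 4 ratios the smallest adjusted p that a single one could reach is 0.114.

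The genes also differed in how much they varied among libraries of the same group. The SD of log2 signal was 1.08 in WT and 1.15 in IL-2-KO for Dusp1, above that of 99.5% and 99.3% of tested genes, whose medians were 0.13 and 0.19. For Dusp5 the SD was 0.98 in WT and 0.58 in IL-2-KO, above 99.3% and 95.5% of tested genes. Dusp1 spanned 5.85-fold across the WT libraries and 6.75-fold across the IL-2-KO libraries, and Dusp5 spanned 5.11-fold and 2.36-fold. Dusp6 in WT was at the other end, with an SD of 0.06, above that of only 12.2% of tested genes, while in IL-2-KO its SD was 0.34. Dusp4 had an SD of 0.60 in WT and 0.15 in IL-2-KO.

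The immediate early genes, a class transcribed within minutes of stimulation or handling, were set beside them. Their summed signal over 26 listed genes was 2900, 6125, 3802 and 3418 in WT and 4416, 2841, 5508 and 3389 in IL-2-KO. IL-2-KO replicate 3 and WT replicate 2 were again the highest of their groups. For 17 of the 26 genes (65.4%), both of these libraries held the highest value of their group, as for 3 of the 6 phosphatases (Dusp1, Dusp4 and Dusp5) and 17.5% of all tested genes. Fos and Jun, the subunits of AP-1, are given as examples chosen after their values were seen. Fos was at 147, 426, 287 and 183 in WT and 276, 92.3, 430 and 146 in IL-2-KO. Jun was at 16.7, 190, 44.4 and 31.2 in WT and 114, 45.1, 162 and 43.4 in IL-2-KO. Both showed the same high libraries as Dusp1. These are also the libraries with the highest Cd4 and myeloid marker levels, and the part of those markers in the values was not tested.

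**Figure D3:**
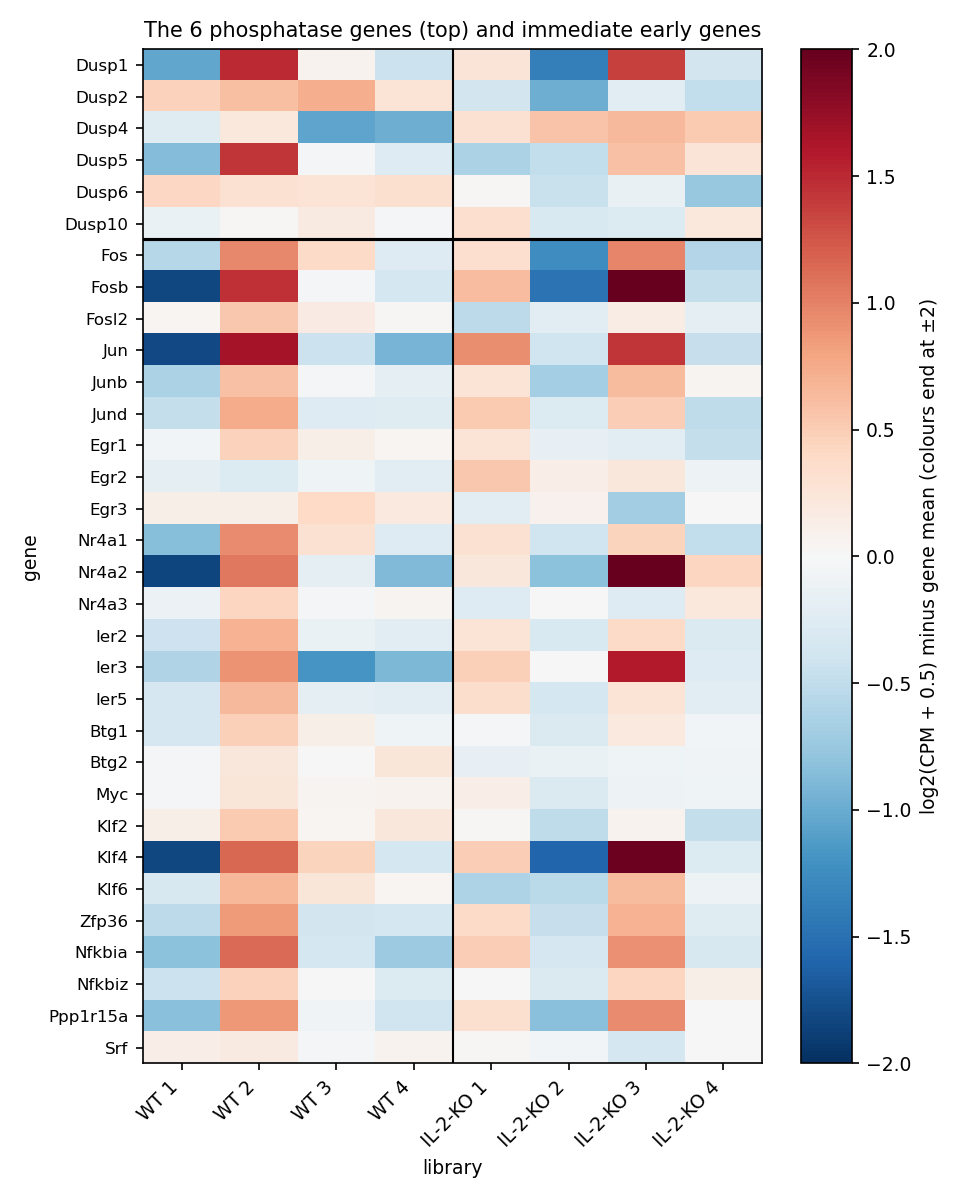
Log2(signal + 0.5) of the 6 phosphatase genes (top) and 26 immediate early genes in each of the 8 libraries, as the difference from each gene's mean, red above it and blue below. IL-2-KO replicate 3 and WT replicate 2 are the columns with most of the high values.

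None of the 26 immediate early genes passed the test between the groups, and their median log2 change was 0.04. The 4 with the smallest limma adjusted p were Egr2 (17.4 in WT and 23.4 in IL-2-KO, 0.0695), Klf2 (282 and 209, 0.0725), Btg2 (142 and 121, 0.0779) and Egr3 (0.118). Egr2 and Egr3 encode zinc finger factors induced through the antigen receptor, Klf2 a factor of quiescent T cells, and Btg2 an antiproliferative protein. At an unadjusted p under 0.05 there were 5 of the 26, against 33.3% of all tested genes.

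The transcripts of Dusp1 and Dusp2 carried 4 copies each of ATTTA, the core of AU-rich elements that mark short-lived messages, in 3′ UTRs of 690 and 581 bases (GENCODE M21, longest coding transcript). Per kilobase of 3′ UTR this was 5.80 for Dusp1 and 6.88 for Dusp2, above 95.6% and 97.2% of tested genes. Dusp10 had 3 copies, Dusp4 had 2, and Dusp5 and Dusp6 had 1 each, against a median of 2 per tested gene. None of 10 tested genes of AU-rich message decay passed, among them Zfp36, whose protein binds such elements, at 336 ± 175 in WT and 372 ± 136 in IL-2-KO (SD, n = 4 each). At an unadjusted p under 0.05 there were 2 of the 10, against 33.3% of all tested genes.

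The other typical MAP kinase phosphatases on the list were Dusp7, Dusp16 and Styxl1. Dusp7, the closest relative of Dusp6 and also a cytoplasmic ERK phosphatase, fell from 23.7 ± 3.04 to 17.4 ± 1.47 (SD, n = 4 each; log2 change −0.43, limma adjusted p = 0.0321). Its values were 24.1, 19.5, 24.7 and 26.6 in WT and 18.3, 18.8, 17.2 and 15.5 in IL-2-KO, without overlap. The call was lost on leaving out any of WT replicates 1, 3 and 4 or IL-2-KO replicates 3 and 4, with limma adjusted p from 0.0615 to 0.107. Dusp16, a phosphatase of JNK and p38, was at 3.18 ± 1.67 and 3.68 ± 1.17 (SD, n = 4 each, limma adjusted p = 0.614). Styxl1, a catalytically inactive relative, was at 1.48 ± 0.65 and 0.85 ± 0.23 (SD, n = 4 each, limma adjusted p = 0.184).

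Of 10 atypical dual specificity phosphatases, which lack the MAP kinase binding domain, 2 were lower, and 1, Dusp14, was higher but was tested only through the group in which it was high. Of all tested genes, 8.03% passed lower and 11.1% higher. Dusp14, which restrains antigen receptor signalling, was almost undetected in WT (0.120, 0.590, 0.0063 and 0) and present at a low level in IL-2-KO (2.08, 1.33, 5.22 and 1.34). These values rest on 0 to 7 counts per WT library and on 22, 24, 31 and 97 counts in the IL-2-KO libraries. The log2 change was 2.04 (limma adjusted p = 0.00631), and it depended on the pseudocount, being 3.46 with 0.1 and 0.97 with 2. No WT library reached a signal of 1, so Dusp14 entered the test only through the 4 IL-2-KO libraries, had no value with any 1 of them left out, and its call is a description. Its limma adjusted p was 0.181 among the libraries of over 2 M cells and 0.0755 among those of under 2 M. Dusp12, a zinc-binding phosphatase, fell from 29.7 ± 1.86 to 21.3 ± 1.01 (SD, n = 4 each; log2 change −0.47, limma adjusted p = 0.00478). Dusp22, which dephosphorylates the T cell kinase Lck, fell from 18.2 ± 0.86 to 14.1 ± 1.62 (SD, n = 4 each; log2 change −0.36, limma adjusted p = 0.0442). The Dusp22 call was lost when any WT library, or any of IL-2-KO replicates 1 to 3, was left out, with limma adjusted p from 0.0591 to 0.117. Dusp19 was at 36.9 ± 4.05 and 44.8 ± 3.02 (SD, n = 4 each) and did not pass (limma adjusted p = 0.0734).

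**Figure D4:**
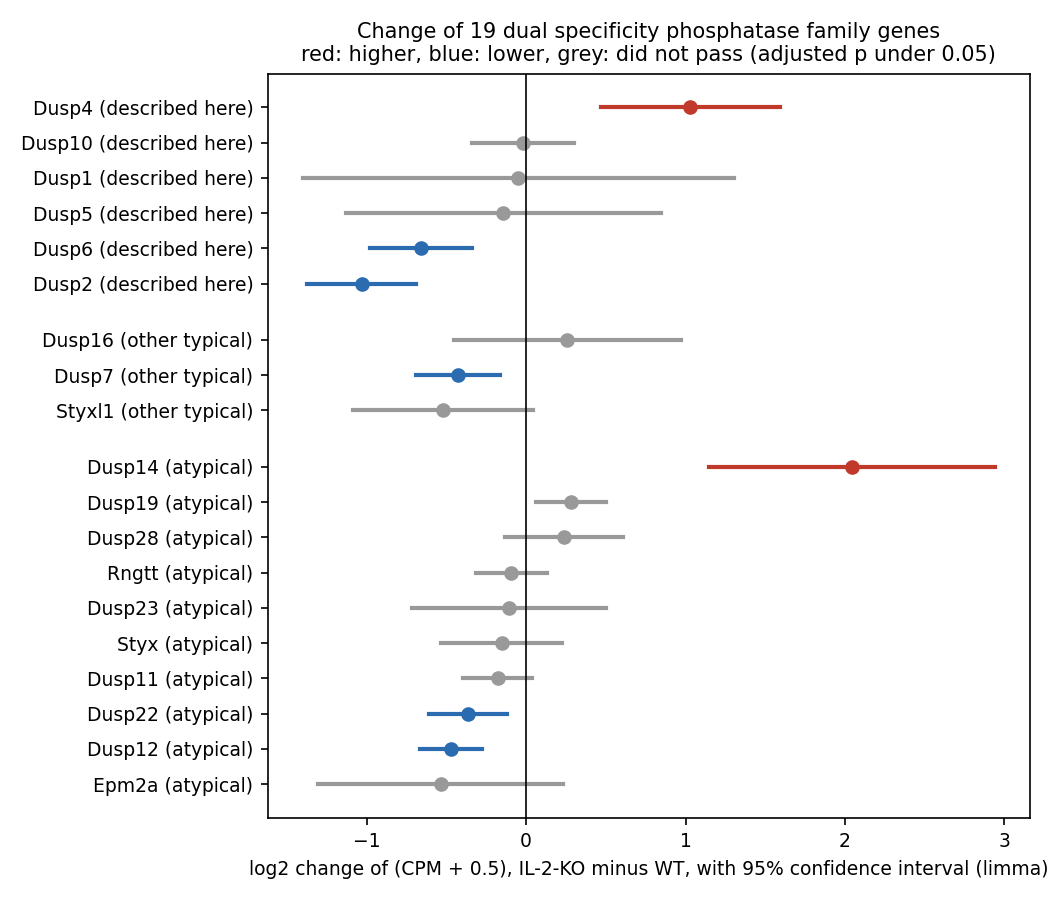
Log2 change of IL-2-KO against WT with its 95% confidence interval for the 19 tested dual specificity phosphatase genes (limma on log2(signal + 0.5), 4 against 4 libraries). Dusp14, tested only through its IL-2-KO libraries, and Dusp4 are the 2 that passed upward, and Dusp2, Dusp6, Dusp12, Dusp7 and Dusp22 the 5 that passed downward.

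The pathway around the phosphatases was described from 8 lists of its other parts. Together, 13 of their 122 tested genes passed (10.7%, against 19.2% of all tested genes), 6 higher and 7 lower, with a median log2 change of −0.06. Of 9 MAP kinases, a list that includes the ERK, JNK and p38 targets of the phosphatases, Mapk6 rose (90.1 to 108, log2 change 0.26, limma adjusted p = 0.0173) and Nlk fell (217 to 177, −0.29, limma adjusted p = 0.0167). Both are atypical members, and each call was lost without 1 WT library: Mapk6 without replicate 4 (adjusted p = 0.0694) and Nlk without replicate 3 (limma adjusted p = 0.0643). Mapk3, which encodes an ERK, did not pass (47.8 ± 2.94 in WT and 42.6 ± 6.74 in IL-2-KO, SD, n = 4 each), nor did Mapk8, which encodes a JNK, or Mapk14, which encodes p38.

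Of 19 kinases that act above the MAP kinases, 2 were higher and 1 was lower. These calls were 15.8% of the list, near the 19.2% of all tested genes that passed. Map3k5, the stress-responsive kinase also called ASK1, was at 34.5, 35.6, 33.8 and 35.8 in WT and 80.9, 77.2, 86.5 and 65.9 in IL-2-KO. The groups lay far apart relative to their spread (log2 change 1.13, limma adjusted p = 7.09e-05), and this call held in all 23 alternatives run. Map3k8, known as Tpl2, which activates the ERK branch, rose from 29.5 ± 6.52 to 54.8 ± 4.43 (SD, n = 4 each; log2 change 0.91, limma adjusted p = 0.00210). Map2k7, an activator of JNK, fell from 152 ± 5.24 to 121 ± 4.38 (SD, n = 4 each; log2 change −0.33, limma adjusted p = 0.00478).

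Among 22 genes of RAS activation and its control, 2 were higher and 3 were lower. These calls were 22.7% of the list, near the 19.2% of all tested genes that passed. Ksr1, a scaffold that joins RAF, MEK and ERK, rose from 21.1 ± 2.65 to 36.1 ± 2.20 (SD, n = 4 each; log2 change 0.77, limma adjusted p = 8.66e-04). Rasgrp2, an exchange factor mainly for RAP proteins, fell from 535 ± 33.4 to 374 ± 38.4 (SD, n = 4 each; log2 change −0.52, limma adjusted p = 0.00264). Dgka, which consumes the diacylglycerol that recruits RASGRP proteins, fell by 0.39 on the log2 scale (limma adjusted p = 0.0306). Rasal3, a GTPase-activating protein of T cells that turns RAS off, fell by 0.31 (limma adjusted p = 0.0314). Ptpn11, which encodes the phosphatase SHP2, rose by 0.40 (limma adjusted p = 0.0396). The calls of Dgka, Rasal3 and Ptpn11 were each lost on leaving out any of 6 single libraries, among them WT replicates 1, 3 and 4 and IL-2-KO replicates 2 and 4. The limma adjusted p then ran from 0.0514 to 0.0838 for Dgka, from 0.0632 to 0.0959 for Rasal3 and from 0.0707 to 0.104 for Ptpn11. The sixth library was WT replicate 2 for Dgka and Ptpn11 and IL-2-KO replicate 3 for Rasal3.

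Of the 9 tested feedback inhibitors of ERK signalling, which include the Sprouty and Spred genes, none passed, and the median log2 change was −0.05. With an unadjusted p under 0.05 there were 4 of the 9, against 33.3% of all tested genes. The smallest limma adjusted p was that of Sh2d2a, a T cell adaptor, at 277 ± 23.0 in WT and 331 ± 32.6 in IL-2-KO (SD, n = 4 each, 0.0764). Spred2, which holds RAF inactive, was at 39.6 ± 8.06 and 27.6 ± 9.92 (SD, n = 4 each, limma adjusted p = 0.133). Of 21 MAP kinase substrates, Stmn1, which encodes the microtubule regulator stathmin, rose from 30.4 ± 3.47 to 70.9 ± 9.58 (SD, n = 4 each; log2 change 1.20, limma adjusted p = 1.29e-04). Etv3, a repressor of the ETS family, fell from 139 ± 13.5 to 99.8 ± 5.78 (SD, n = 4 each; log2 change −0.48, limma adjusted p = 0.00353). Of 8 other phosphatases that act on MAP kinases, Ppm1b alone passed, falling by 0.39 on the log2 scale (limma adjusted p = 0.0159, and 0.0593 without WT replicate 3).

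**Figure D5:**
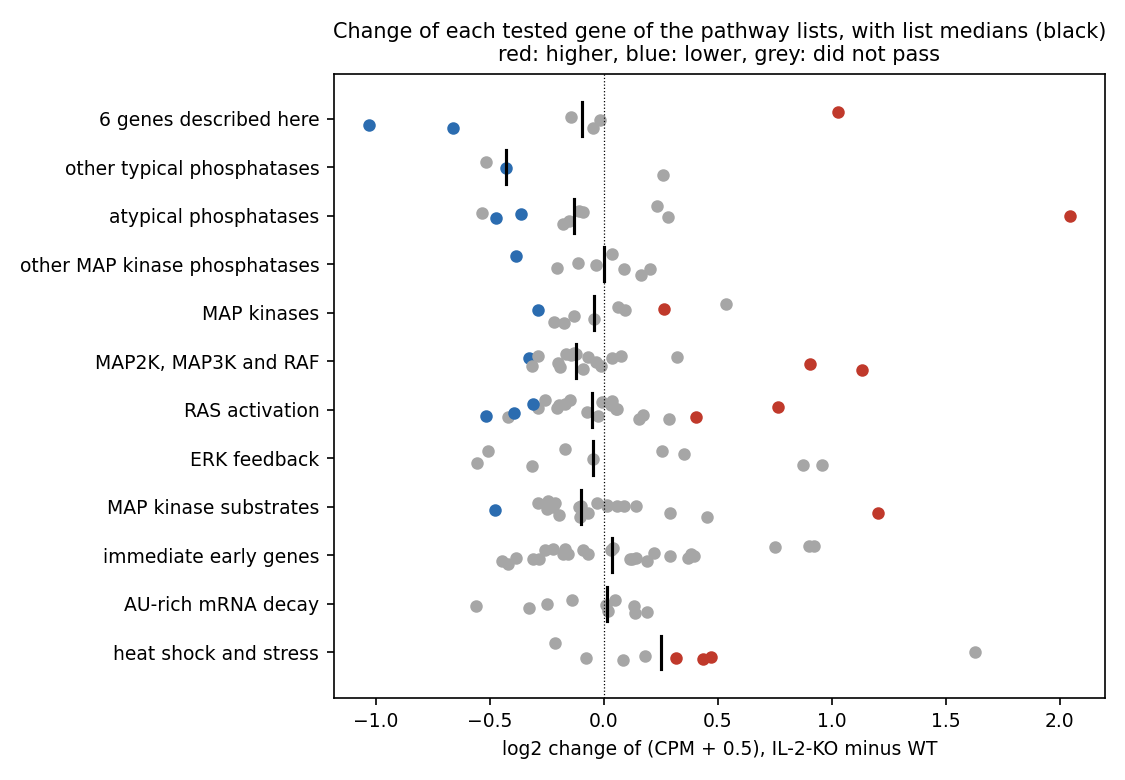
Log2 change of IL-2-KO against WT for every tested gene of each pathway list, with genes that passed (limma adjusted p under 0.05) marked and list medians drawn. Red points passed upward and blue points downward. None of the immediate early, ERK feedback or AU-rich decay genes is coloured, and the heat shock and stress genes have a median of 0.25.

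Heat shock and stress genes, which move with handling as well as with cell state, were listed for comparison. Of 8 tested, 3 rose and none fell, where 11.1% of all tested genes passed higher and 8.03% lower. The 3 were the chaperones Hspa8 (log2 change 0.43, limma adjusted p = 0.00232), Hspd1 (0.32, limma adjusted p = 0.00412) and Hsp90aa1 (0.47, limma adjusted p = 0.00755). The summed signal of all 10 was 1250 to 1402 in WT and 1573 to 1746 in IL-2-KO, without overlap. Of all tested genes, taken singly, 24.2% did not overlap. The part of the stress genes in the change of Dusp2, Dusp4 and Dusp6 was not tested.

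Among 8872 candidate genes with a mean signal of at least 10, the genes most like each changed phosphatase across the 8 libraries were found by the root mean square difference of centred log2 signal. Closest to Dusp2 were Auts2 (0.10), Rgs11 (0.15) and Nudt6 (0.19). For Dusp4 they were Pltp (0.24), Tspan3 (0.25) and Pask (0.25), and for Dusp6 they were Rara (0.07), Rnf167 (0.09) and Flt3l (0.10). The likeness rests on 8 libraries in 2 groups and is a description. Rara, which encodes a retinoic acid receptor, was at 106 ± 5.08 in WT and 70.8 ± 14.3 in IL-2-KO (SD, n = 4 each), values near those of Dusp6.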

How the data were processed

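Total RNA of 8 CD8 T cell libraries, 4 WT and 4 IL-2-KO, was made into libraries that keep strand, per the labels' protocols, and sequenced. The deposited signal, named by the authors as TMM counts CPM, is linear, and its columns sum to between 988292 and 1022950. The submitters' processing notes name GRCm38 and mm10 as builds and, as tools, R 3.4.3, limma 3.34.9 and featureCounts. None of the sources used here gives the aligner. Of the low values (under 20), 100% came out as multiples of 0.01 read in every library, within 0.05 of that step, and between 54.6% and 65.0% as whole reads, within 0.001 read. Fractional read counting yields such values, although no source states it, and no whole-read count test was run. The design had expected CPM, and its test was kept.

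Entrez identifiers were matched to RefSeq (GRCm38.p6) symbols, 11651 matched and 72 not. The groups were compared with limma 3.58.1 (R 4.3.3) on log2(signal + 0.5) over genes that reached a signal of 1 in 4 or more of the 8 libraries, with a mean-variance trend and Benjamini-Hochberg adjustment over all 11530 genes tested. The fit was tested on simulated counts, drawn with the same relative spread beyond counting error for every gene and with no library set apart. That setting does not cover the uneven spread of these libraries. Single values were compared by exact permutation over libraries in R 4.3.3. P-values set the difference between the groups against the spread between these libraries. The WT libraries are pools of mice and the IL-2-KO pooling is not given, so this need not be the spread between animals. No library was a duplicate of another (within groups, chi-square per gene at least 5.03). Other pseudocounts, filters, scalings, a GC and length correction, array weights, cell number as a covariate and left-out libraries were tried.

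The members and the gene lists were chosen with earlier results of these data known. Named genes were the 6 members, the other typical phosphatases, up to 4 genes with the smallest adjusted p of each other pathway list, the 2 highest markers of each marker list, Il2, and the 3 genes most alike to each member that passed. Genes named outside this rule are Fos, Jun, Zfp36, Mapk3, Mapk14 and Ptpn11, and the other markers, chosen after their values were seen.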

Additional observations from a re-analysis of the deposited data

Results flagged for a closer look

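For the genes and marker sums examined, 160 groups of 4 libraries were checked for 1 library far from the other 3, by the gap to its nearest neighbour over the whole range (Dixon's test at its 95% critical value). By chance about 5% of groups are marked in this way; here 19 were (11.9%), of which 9 concerned WT replicate 2 and 8 IL-2-KO replicate 3. In the phosphatase family, Dusp16 was at 5.43 in IL-2-KO replicate 3, Styxl1 at 2.44 in WT replicate 2 and Dusp22 at 19.5 in WT replicate 1, each the highest of its group by a wide gap. None of Dusp1, Dusp2, Dusp4, Dusp5, Dusp6 and Dusp10 was marked.

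Outside the family, Mapk11, which encodes a p38 kinase, was at 22.7 in WT replicate 2. Hmox1, which encodes the haem-degrading enzyme induced by oxidative stress, was at 3.62 in WT replicate 2 and 17.7 in IL-2-KO replicate 3. Cd4 was at 38.6 and 45.5 in the same libraries, and Cd74, the invariant chain of antigen-presenting cells, at 101 and 279. The sum of the helper and regulatory T cell markers was 103 and 249 there, and that of the myeloid and dendritic cell markers 707 and 1537. Ctla4 was at 171 and Xbp1 at 52.3 in IL-2-KO replicate 3. In WT replicate 2 the plasma cell marker sum was 77.1, and Ccr9 was at 153, the lowest of its group. Hbb-bs, a haemoglobin gene, was at 16.4 in IL-2-KO replicate 4.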

How the results depend on the processing

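Over the 23 alternatives, the call of Dusp2 held in 22, that of Dusp6 in 21 and that of Dusp4 in 20, none with a change of direction, and no call was gained for Dusp1, Dusp5 or Dusp10. Keeping only the 4 libraries of over 2 M (1e6) sorted cells left 1 of the 6 genes passing, 3 genes of the pathway, other Dusp and stress lists together (20 with all libraries) and 364 of all tested genes (2211 with all libraries); Dusp4 was then at 0.46 and Dusp6 at −0.57 on the log2 scale. Keeping only those of under 2 M, an alternative chosen after seeing the data, left 1, 4 and 457, with Dusp2 at −0.86 and Dusp6 at −0.76; both fits had fewer samples. Array weights gave 4359 genes in all and 47 of these lists, and removing GC and length trends gave 32 of the latter; the cause was not tested. The split of 1285 higher and 926 lower calls was 1173 and 1102 with a median shift and 1169 and 1223 with quantile normalization, and without WT replicate 3 it was 847 and 437. Leaving out 1 library at a time gave 1284 to 2184 genes in all, 13 to 24 of these lists, and a log2 change of 0.85 to 1.27 for Dusp4. The deviations of same-numbered libraries had correlations of 0.08, −0.53, −0.40 and 0.39 for numbers 1 to 4, without a common direction. With deviations from means of only 4 libraries, these correlations cannot settle whether the numbers pair the libraries. The highest correlation, 0.66, was that of IL-2-KO replicate 3 with WT replicate 2, and the labels give no sort or day. The sample titles give these libraries consecutive numbers, and whether such numbers pair the libraries was not tested. A block by replicate number puts these libraries in different blocks, so it does not test that pairing. With the replicate number as a block, 1397 genes passed in all and 12 of these lists, no call of the 6 genes changed (Dusp2 adjusted p = 0.0050, Dusp4 0.0353, Dusp6 0.0190, limma), and the difference of 2.06 in the log2 ratio of Dusp4 to Dusp2 had an exact sign-flip p of 0.125, the smallest that 4 pairs allow. That p too follows from the separation of Dusp4 and Dusp2. The values of the 6 genes rest on 177 to 8030 counts per library. How much of the spread between libraries was counting error was not tested.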
